A study of Mus musculus with 16 samples.

Results

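The replication-dependent histone genes supply the histone proteins that package newly copied DNA. They were taken as the protein-coding genes whose current symbols in the RefSeq gene table of mouse build mm10 (assembly GRCm38) begin with H2ac, H2bc, H3c or H4c and a digit, or are H1f1 to H1f5. No current symbol began with an older Hist prefix. This rule gave 62 genes among 21887 protein-coding genes, mitochondrial genes left out. They comprise 5 linker histone H1 genes, 17 H2A, 16 H2B, 12 H3 and 12 H4 genes. By position they form 3 clusters, with 10 genes on chromosome 3 (96219885 to 96270192), 22 on chromosome 13 at 21715711 to 22043658 (the proximal cluster) and 30 on chromosome 13 at 23531044 to 23934913 (the distal cluster). Another 5 protein-coding genes carry an older Hist symbol only as a synonym (H4f16, H2bu2, H2aw, H4bc24 and H1f6), and they were not counted as members.

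In a nucleosome, DNA is wrapped around H2A, H2B, H3 and H4, and H1 binds the linker DNA. The replication-dependent genes are transcribed mainly in S phase, in nuclear histone locus bodies organised by NPAT. Most of their mRNAs lack introns and a poly(A) tail and end in a stem-loop bound by SLBP. Embryonic stem cells divide fast and spend much of their cycle in S phase. Among histone marks, H3K4me3 is found at promoters in use or poised for use, H3K27ac at promoters and enhancers in use, and H3K27me3 is placed by Polycomb repressive complex PRC2. These marks sit on H3 itself, the product of some of the members.

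Chromatin immunoprecipitation with sequencing was done in C57BL/6 mouse embryonic stem cells labelled Mettl14 Control or Mettl14 CKO, the knockout. METTL14 pairs with METTL3 to form the enzyme that writes N6-methyladenosine on RNA. All cells grew in serum medium with LIF, the GSK3 inhibitor CHIR99021 and the MEK inhibitor PD0325901, and 2 lists per condition and mark were analysed. How the allele was made, how long the gene had been lost and whether a line was 1 clone were not stated in the labels.

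A gene counted as called in a list if any peak reached within 1 kb of its start or end coordinate. "Knockout-only" means called in both knockout lists of a mark and neither control list, "control-only" the reverse. Most members are under 1 kb long, so the windows at both ends merge, and neighbours in a cluster often share a peak. Peak width is the only size in the lists, and the depth behind each list is unknown. Nothing says that replicates came from separate cultures, so the spread between lists may be technical.

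The lists differ in length: 2431 to 2859 peaks in control and 8055 to 8131 in knockout lists for H3K4me3, 13520 to 15541 and 15058 to 15271 for H3K27ac, 6312 to 7203 and 11349 to 11446 for H3K27me3. Condition and list length go together for H3K4me3 and H3K27me3, and their parts in a difference cannot be told apart. Labels of the H3K27ac libraries name the antibody against H3K4me3, and the mark in the title was used. Of 8 embryonic stem cell markers, 6 had H3K27ac in the control lists and 7 in the knockout lists, counting those called in both. The stem cell marker Esrrb had H3K27ac in control replicate 1 alone (501 bp) and no H3K4me3 call. It was knockout-only for H3K27me3 (767 and 501 bp). Of 8 fibroblast markers, 0 had H3K27ac or H3K4me3 in any list. Of 8 trophectoderm markers, Gata3 and Tfap2c had H3K27ac in both knockout lists, and 0 had it in both control lists. Gata3 was also knockout-only for H3K27me3 (627 and 3209 bp), and Cdx2 and Eomes had H3K27me3 in all 4 lists. Cdx2, Krt18 and Hand1 had no H3K27ac or H3K4me3 call. Eomes was knockout-only for H3K4me3 (1033 and 807 bp), and 0 and 2 trophectoderm markers were called for H3K4me3 in each control and each knockout list; the part of this in the results was not tested. Of 7 primitive endoderm markers, 1 had H3K27ac in control replicate 1 and 0 had H3K4me3.

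H3K27ac was called at most histone genes in both conditions, H3K4me3 mostly in the knockout lists, and H3K27me3 at none. H3K27ac was called at 41 and 33 of the 62 genes in control replicates 1 and 2 and at 48 and 39 in knockout replicates 1 and 2, where all genes were at 17.4%, 14.4%, 22.1% and 22%. H3K4me3 was called at 1 and 0 genes in the control lists and at 19 and 13 in the knockout lists. H3K27me3 was called at 0 of 62 in all 4 lists, where 7.31% and 8.25% of all genes were called in the control and 12.7% and 13% in the knockout lists. Of all genes 2.43% were knockout-only for H3K27me3, 0.315% control-only and 20.3% called in at least 1 list.

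**Figure D1:**
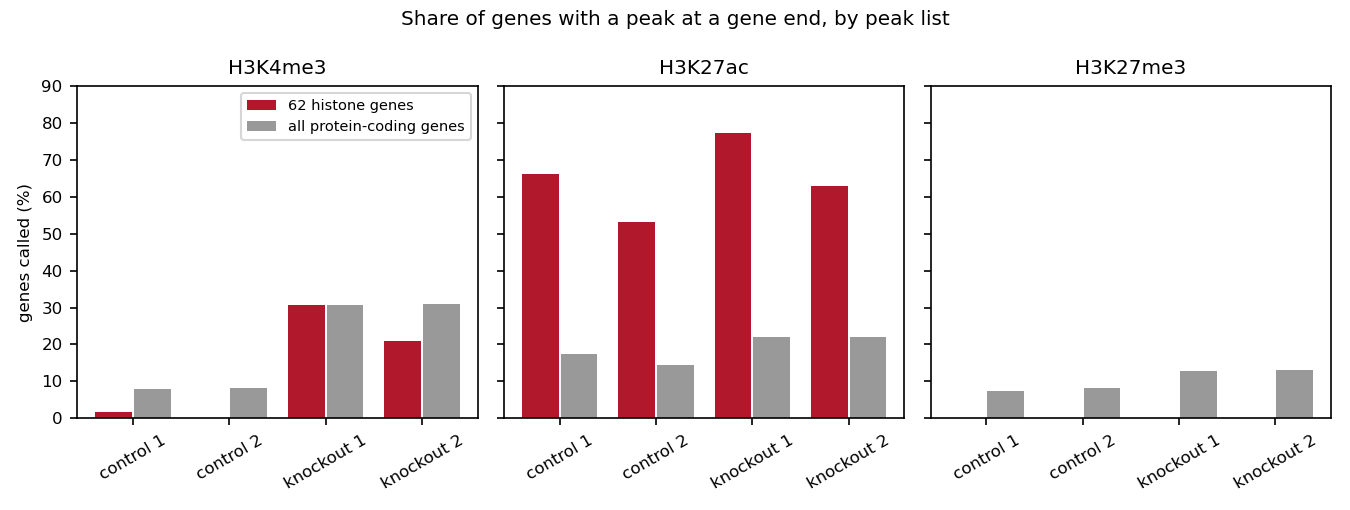
Share of genes (%, vertical axis) with a peak at a gene end in each of the 12 peak lists, for the 62 histone genes (red) and all 21887 protein-coding genes (grey). Red bars stand above grey bars in all 4 H3K27ac lists, are absent in all 4 H3K27me3 lists, and do not exceed 1.61% in the H3K4me3 control lists.

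For H3K4me3, 11 members (17.7%) were knockout-only, against 13.5% of all genes, and 0 were control-only, against 0.0274%. All genes were at 8.01% and 8.08% in the control and 30.8% and 30.9% in the knockout lists. No member was called in both control lists, against 3.07%, or in all 4 lists, against 2.90%. Of the members, 21 were called in at least 1 list, against 38.6% of all genes. The mean number called was 16 ± 4.24 in knockout and 0.5 ± 0.707 in control lists (SD, n = 2 each), and the lists did not overlap. As shares, 25.8 ± 6.84% of members were called in knockout lists, against 30.9 ± 0.0291% of all genes. In control lists 0.806 ± 1.14% of members were called, against 8.05 ± 0.0485% of all genes. The share of knockout-only members was thus near that of all genes.

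The H3K4me3 count changed with the length of the lists. Among peaks wider than the minimum of 501 bp, 8 members were knockout-only. With each list cut to its 2431 widest peaks, members called were 1 and 0 in control and 1 and 2 in knockout lists, and 0 were knockout-only, against 3.05% of all genes. At that length the narrowest knockout peaks kept were 1178 and 1149 bp, and the narrowest control peaks 501 bp. Without knockout replicate 2, which called fewer members than replicate 1, 18 members were knockout-only.

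The widest H3K4me3 peak at a member was at a linker histone gene in each knockout list. Of the 5 H1 genes, 4 were knockout-only, against 13.5% of all genes. H1f2 (Hist1h1c, which encodes H1.2; chromosome 13, 23738807 to 23739531) had no H3K4me3 peak in either control list and widths of 1809 and 937 bp in the knockout lists. H1f3 (Hist1h1d; 23555032 to 23555807) had none in control and 1098 and 842 bp in knockout lists. H1f5 (Hist1h1b; 21779832 to 21780625) had none in control and 1047 and 774 bp. H1f4 (Hist1h1e; 23621777 to 23622558) had none in control and 800 and 1462 bp in peaks that also touched the window of its neighbour H2bc6. In each of these 4 genes the knockout widths exceeded the control widths without overlap (exact two-sided permutation test on width, p = 0.33, the smallest possible with 2 lists against 2). The other linker gene, H1f1 (Hist1h1a; 23763668 to 23764412), had no H3K4me3 peak in any list. All genes with wider peaks in both knockout lists than in both control lists made up 22.9% for this mark, so a difference of this kind was common.

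The 5 H1 promoters are shown because the same family splits into 4 genes with H3K4me3 in the knockout lists and 1 without. Each runs from 250 bases before the start to 50 after it, 5′ to 3′ on the gene's strand (RefSeq, GRCm38), with capitals at CCAAT and TATAAA and at AAACACA on either strand. Ranges on chromosome 13 are chr13:23763418-23763717 for H1f1 (plus strand), chr13:23738557-23738856 for H1f2 (plus), chr13:23554782-23555081 for H1f3 (plus), chr13:23622509-23622808 for H1f4 (minus) and chr13:21780576-21780875 for H1f5 (minus).
H1f1: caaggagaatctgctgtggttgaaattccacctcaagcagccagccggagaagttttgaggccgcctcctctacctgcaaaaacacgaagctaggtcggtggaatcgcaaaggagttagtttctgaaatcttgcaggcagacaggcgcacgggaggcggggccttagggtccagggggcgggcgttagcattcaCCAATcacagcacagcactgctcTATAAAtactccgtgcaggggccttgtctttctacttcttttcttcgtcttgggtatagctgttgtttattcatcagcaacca
H1f2: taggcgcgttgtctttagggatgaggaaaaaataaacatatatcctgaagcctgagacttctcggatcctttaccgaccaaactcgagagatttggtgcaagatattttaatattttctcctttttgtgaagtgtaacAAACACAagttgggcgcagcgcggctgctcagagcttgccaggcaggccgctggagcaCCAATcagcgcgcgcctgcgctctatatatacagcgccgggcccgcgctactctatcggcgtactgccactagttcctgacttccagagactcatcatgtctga
H1f3: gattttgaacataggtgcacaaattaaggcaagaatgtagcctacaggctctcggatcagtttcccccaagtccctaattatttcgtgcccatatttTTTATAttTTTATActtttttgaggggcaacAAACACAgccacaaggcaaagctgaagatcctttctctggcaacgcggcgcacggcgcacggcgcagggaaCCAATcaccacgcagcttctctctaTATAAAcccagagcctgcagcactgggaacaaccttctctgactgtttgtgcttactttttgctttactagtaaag
H1f4: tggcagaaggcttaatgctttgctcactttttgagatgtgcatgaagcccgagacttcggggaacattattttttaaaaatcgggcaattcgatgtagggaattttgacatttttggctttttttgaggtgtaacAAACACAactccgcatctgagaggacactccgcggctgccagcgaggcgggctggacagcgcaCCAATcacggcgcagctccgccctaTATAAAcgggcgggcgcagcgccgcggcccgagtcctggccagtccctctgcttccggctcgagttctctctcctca
H1f5: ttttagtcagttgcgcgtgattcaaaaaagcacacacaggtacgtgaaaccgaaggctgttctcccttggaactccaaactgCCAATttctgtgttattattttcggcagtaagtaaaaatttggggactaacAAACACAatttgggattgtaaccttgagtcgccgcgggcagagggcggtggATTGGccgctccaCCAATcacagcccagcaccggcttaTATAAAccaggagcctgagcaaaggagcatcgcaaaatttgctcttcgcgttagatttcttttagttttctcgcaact

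All 5 H1 promoters held a CCAAT 51 to 56 bases before the start on the gene's own strand, and H1f5 held 2 more. TATAAA was found in 4 of them, all but H1f2. AAACACA, an element known from H1 promoters and here searched for after the data were seen, stood 112 to 122 bases before the start in H1f2, H1f3, H1f4 and H1f5. H1f1 held no match to these letters in this window. Another 4 members held AAACACA, 2 H2A and 2 H2B genes, and 0 of them were knockout-only for H3K4me3. Over all 17492 protein-coding promoters with a sequence, CCAAT was found in 39.0%, TATAAA in 13.3% and AAACACA in 6.13%. The matches marked in the printed promoters do not overlap one another. A match to a short motif is a description of the letters and shows no binding.

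**Figure D2:**
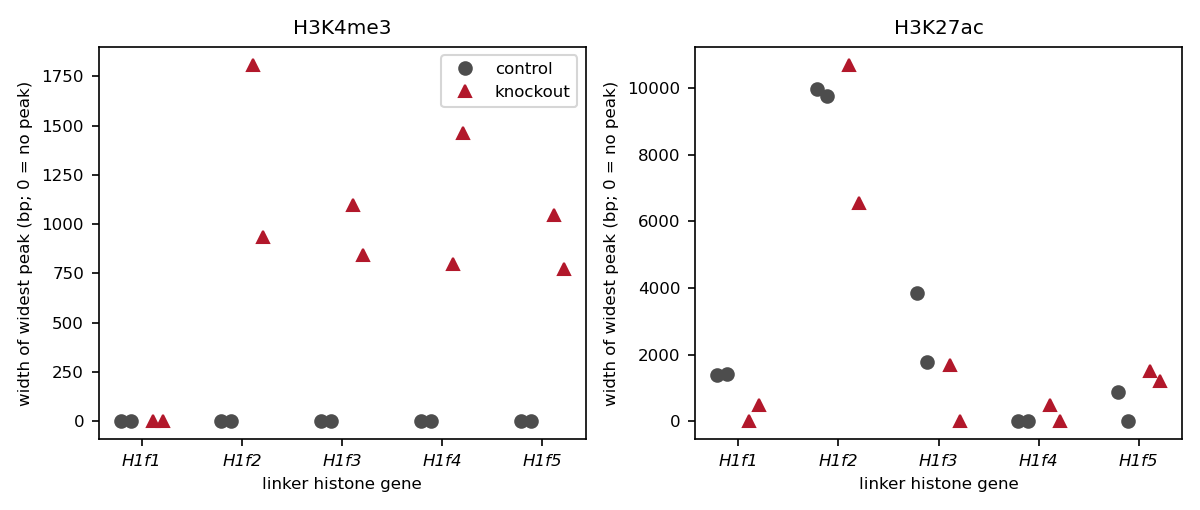
Width of the widest peak (bp, vertical axes, 0 where no peak was called) at the 5 linker histone genes for H3K4me3 (left) and H3K27ac (right), 1 point per peak list, circles for control and triangles for knockout. For H3K4me3 all 8 knockout points of H1f2 to H1f5 lie between 774 and 1809 bp and all control points at 0; for H3K27ac H1f2 lies above the other 4 genes in every list.

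In the core histone families 8.33% to 16.7% of genes were knockout-only for H3K4me3, near the 13.5% of all genes. Of 17 H2A genes 2 were knockout-only, of 16 H2B genes 2, of 12 H3 genes 1 and of 12 H4 genes 2. The H2A and H2B members were H2ac21, H2ac20 and H2bc21 on chromosome 3, which shared 1 peak per list, and H2bc6, which shared that of H1f4. The shared chromosome 3 peak was absent in both control lists and 1086 and 803 bp wide in the knockout lists (exact permutation p = 0.33). The H4 members were H4c12 (812 and 501 bp) and H4c14 (501 and 501 bp), with no control peak at either. The H3 member was H3c14 (501 and 501 bp), but its knockout peaks lay on different sides of the gene and did not overlap each other. Its promoter also shares sequence with that of H3c15. Without flanks, on the gene spans alone, 8 members were knockout-only.

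Another 10 members had H3K4me3 calls in a single knockout list or in 1 list of each condition. H3c15 was the only member called in a control list, at 651 bp in control replicate 1, with 628 bp in knockout replicate 1 and no peak in the other 2 lists. In knockout replicate 1 alone H2ac18, H2ac15, H2bc15, H3c11, H3c8, H2ac7 and H3c4 were called, and in knockout replicate 2 alone H3c10 and H4c4, with widths of 501 bp to 700 bp. The 41 others had no H3K4me3 call. Of members called in at least 1 knockout list, 52.4% were called in both, against 63.4% of all such genes.

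Counted as peaks, 13 and 11 distinct H3K4me3 peaks touched members in the knockout lists, of which 5 and 2 touched 2 or more genes. Their median widths were 700 and 677 bp, below the medians of the whole lists, 883 and 866 bp. Of the 22 such peaks at a gene with a known start, 19 had their centre downstream of the nearest start. The median offset over all 22 was 392.5 bp downstream. Merged over lists, the calls made 16 regions, of which 7 were knockout-only and 0 control-only.

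H4c12 and H2ac20 show the promoters of core histone genes called in the knockout lists. Capitals mark CCAAT and TATAAA, the octamer ATTTGCAT and GGTCCG on either strand; GGTCCG is the core of the H4 promoter element bound by HINFP, and the octamer is bound by OCT1. The ranges are chr13:21750504-21750803 for H4c12 (minus strand) and chr3:96220831-96221130 for H2ac20 (minus).
H4c12: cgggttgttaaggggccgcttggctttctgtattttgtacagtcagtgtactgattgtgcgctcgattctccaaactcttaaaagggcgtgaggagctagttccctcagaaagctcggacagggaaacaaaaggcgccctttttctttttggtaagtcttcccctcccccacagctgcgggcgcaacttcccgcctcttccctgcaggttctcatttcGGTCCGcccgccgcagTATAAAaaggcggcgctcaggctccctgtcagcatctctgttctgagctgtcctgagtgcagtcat
H2ac20: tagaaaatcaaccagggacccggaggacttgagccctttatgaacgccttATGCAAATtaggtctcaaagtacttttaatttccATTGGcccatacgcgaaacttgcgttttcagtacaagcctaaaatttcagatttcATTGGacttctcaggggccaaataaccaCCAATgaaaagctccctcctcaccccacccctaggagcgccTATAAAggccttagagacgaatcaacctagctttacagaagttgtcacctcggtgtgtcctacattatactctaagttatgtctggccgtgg

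Among the 57 members with a promoter sequence, 49 (86.0%) held CCAAT and 34 (59.6%) TATAAA. The H4 element GGTCCG was found in 10 of 11 H4 promoters, and in 10.6% of all promoters. ATTTGCAT was found in 6 of 14 H2B and 6 of 17 H2A promoters, in 0 H1, H3 or H4 promoters and in 1.71% of all. CpG number per 300 bases had a median of 15 in the 9 knockout-only members with a sequence, 10.5 in the other 48 and 13 in all promoters. The ranges overlapped, at 9 to 27 and 3 to 41 CpGs.

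H3K27ac was called at a larger share of the members than of all genes in each of the 4 lists. It was called in both control lists at 31 members (50%), against 9.08% of all genes, and in both knockout lists at 36 (58.1%), against 14.4%. In all 4 lists 21 members were called (33.9%), against 6.91% of all genes, and 55 were called in at least 1 list (88.7%), against 34.6%. Many members share peaks, and some, such as H2ac22 and H2bc22, reach 4 lists only through separate regions. Merged over lists, the calls made 41 regions, with 9 in all 4 lists, 4 knockout-only, 1 control-only and 27 in other combinations. The mean number of members called was 43.5 ± 6.36 in knockout and 37 ± 5.66 in control lists (SD, n = 2 each). That difference of 6.5 genes is about the size of 1 SD, and the lists of the conditions overlapped, since control replicate 1 (41) exceeded knockout replicate 2 (39). It ranged from 2 without knockout replicate 1 to 11 without knockout replicate 2, and was 2.5 without control replicate 2 and 10.5 without control replicate 1.

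**Figure D3:**
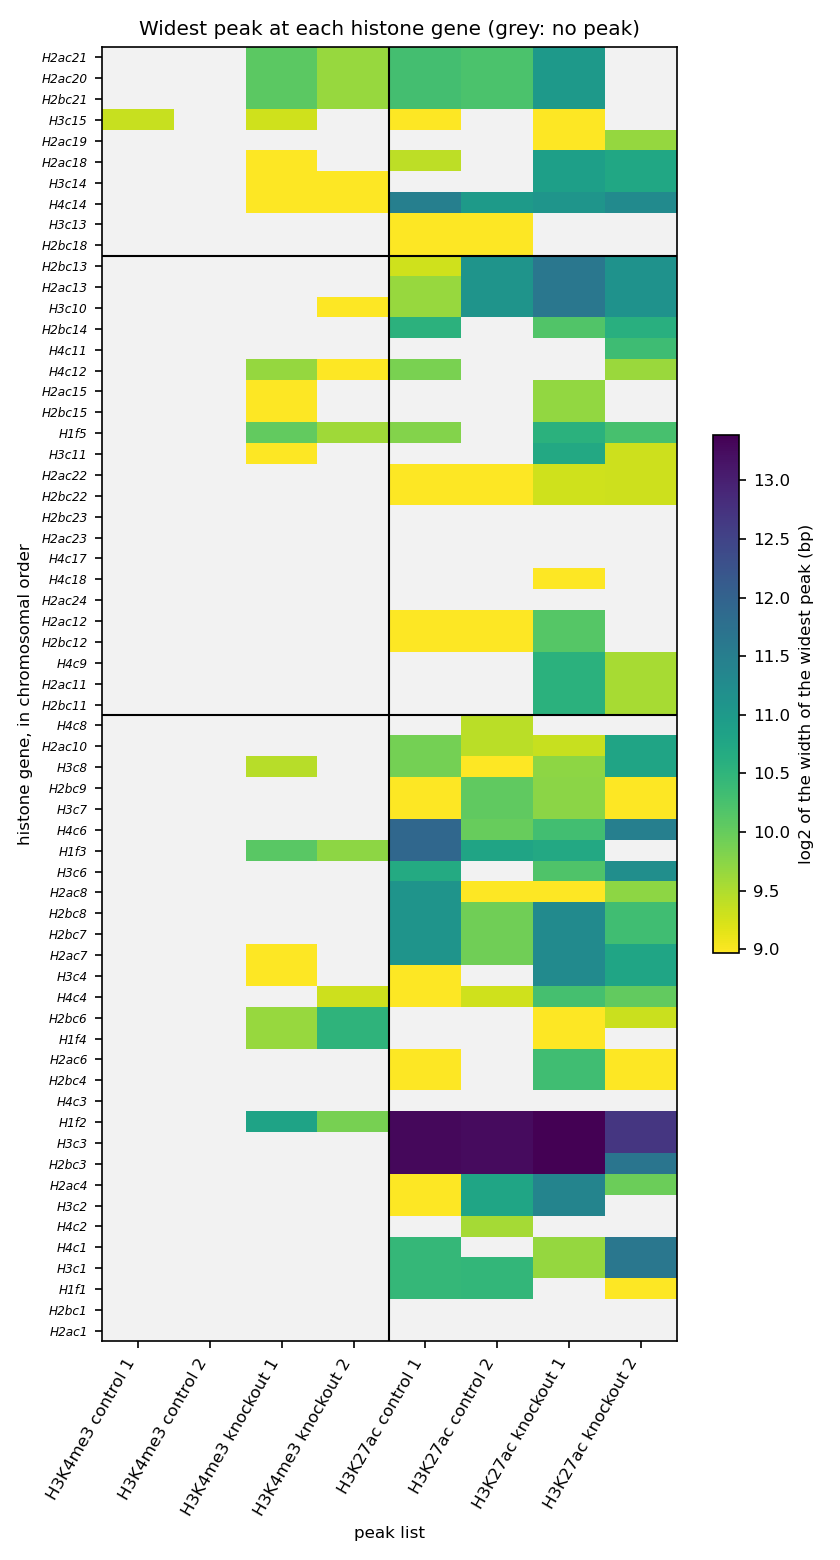
Widest peak at each of the 62 histone genes (rows, in chromosomal order; lines part the chromosome 3, proximal and distal chromosome 13 clusters) in the 4 H3K4me3 and 4 H3K27ac lists (columns). Colour is the log2 of the width in bp and grey means no peak; the darkest block is H1f2, H3c3 and H2bc3 in the H3K27ac lists.

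The widest H3K27ac domain covered H1f2, H3c3 and H2bc3 in the distal cluster. At H1f2 the widths were 9953 and 9741 bp in control and 10691 and 6559 bp in knockout lists. H3c3, an H3 gene, shared these peaks in all 4 lists. H2bc3, an H2B gene, shared them in 3 lists, and its widest peak in knockout replicate 2 was 3246 bp. By widest single peak, knockout replicate 2 was the lowest list at all 3 genes, and the other knockout list the highest, so the conditions overlapped at each of them. In knockout replicate 2 the domain was split into neighbouring peaks, at 23737941 to 23744499 and 23745020 to 23748265. The width of the widest peak there thus falls short of the stretch covered. The merged region spanned 23737806 to 23748496. H1f2 had H3K4me3 in both knockout lists, and H2bc3 and H3c3 had none in any list. The H2bc3 promoter (chr13:23746484-23746783, plus strand) is shown as one with an octamer and wide H3K27ac but no H3K4me3 call, with capitals as for H4c12.
H2bc3: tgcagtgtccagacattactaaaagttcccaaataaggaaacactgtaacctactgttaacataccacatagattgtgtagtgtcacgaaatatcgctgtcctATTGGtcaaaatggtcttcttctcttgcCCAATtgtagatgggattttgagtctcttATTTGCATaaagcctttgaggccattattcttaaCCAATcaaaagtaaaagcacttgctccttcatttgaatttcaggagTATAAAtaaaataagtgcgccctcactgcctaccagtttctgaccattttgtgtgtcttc

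Members with H3K27ac in all 4 lists lay mainly in the distal cluster, 15 of 30 there, against 5 of 22 in the proximal cluster and 1 of 10 on chromosome 3. Of all genes 6.91% were called in all 4 lists. H4c14, the chromosome 3 member, had 2851 and 2017 bp in control and 2167 and 2481 bp in knockout lists. H4c6, another H4 gene, had 3856 and 1019 bp against 1263 and 2841 bp. Both H4 genes varied as much within a condition as between conditions. In the distal cluster H2bc8 and H2bc7 shared peaks of 2205 and 971 bp in control and 2471 and 1281 bp in knockout lists. H2ac7 had the same control peaks and 2471 and 1765 bp in the knockout. These ranges overlapped too.

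By family, H3K27ac was called in both knockout lists at 9 of 12 H3 genes, 10 of 16 H2B genes, 10 of 17 H2A genes, 5 of 12 H4 genes and 2 of 5 H1 genes. In both control lists the numbers were 7 H3, 9 H2B, 9 H2A, 3 H4 and 3 H1 genes. All genes were at 14.4% in both knockout lists and 9.08% in both control lists. Among H1 genes H1f2 was the 1 with H3K27ac in all 4 lists.

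**Figure D4:**
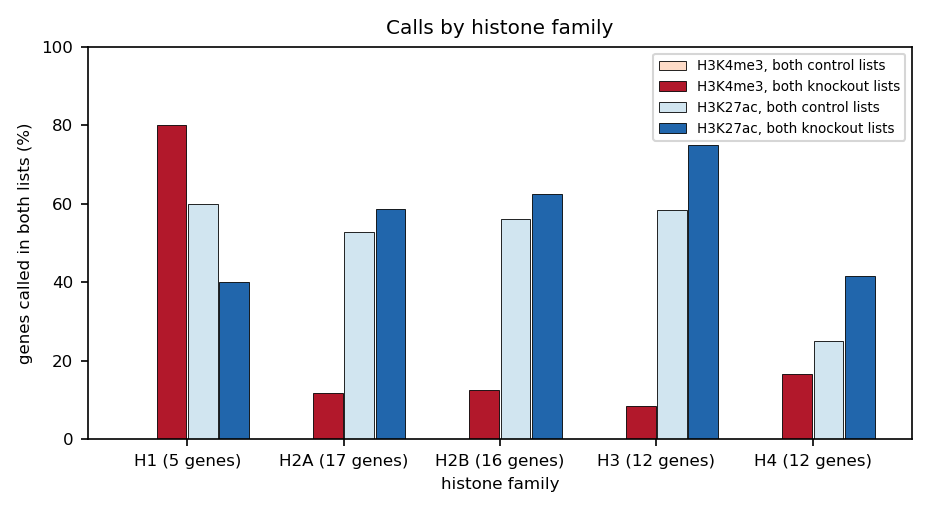
Share of genes (%, vertical axis) of each histone family called in both control lists or both knockout lists for H3K4me3 and H3K27ac. The H3K4me3 bar of H1 in the knockout (80.0%, 4 of 5 genes) exceeds the 8.33% to 16.7% of the core families, and no family has an H3K4me3 bar for the control.

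For H3K27ac 7 members (11.3%) were knockout-only, against 2.88% of all genes, and 2 (3.23%) were control-only, against 0.493%. H3c14 had no peak in control and 1908 and 1734 bp in knockout lists, in peaks shared with H2ac18, which had 677 bp in control replicate 1. H4c9, H2ac11 and H2bc11, neighbours in the proximal cluster, shared peaks of 1513 and 748 bp in the knockout and had none in control lists. H3c11 had 1678 and 631 bp, H2ac19 501 and 809 bp, and H2bc6 501 and 641 bp, each with no control peak (exact permutation p = 0.33 for each of the 7). The knockout peaks of H2ac19 did not overlap each other, and neither did those of H2bc6. H3c13 and H2bc18, adjacent on chromosome 3, were control-only with 501 and 501 bp and no knockout peak. These counts rest on few lists: knockout-only members numbered 15 without control replicate 1 and 11 without knockout replicate 2, and control-only members 4 without control replicate 1 and 9 without knockout replicate 1. With windows of 2500 bp 4 members were knockout-only, and on the gene spans alone 1 was control-only.

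On width, 16 members had a wider H3K27ac peak in both knockout lists than in both control lists, against 7.39% of all genes, and 4 had a narrower one, against 1.18%. Of the 16, 10 lay among the 22 genes of the proximal cluster, but most of these share peaks and are not independent. H4c9, H2ac11 and H2bc11 shared theirs, and so did H2ac22 and H2bc22. The H2ac22 and H2bc22 peaks (501 and 501 bp in control, 628 and 633 bp in knockout lists) lay in different regions for replicates 1 and 2. H2bc13, H2ac13 and H3c10 there shared peaks of 2186 bp in control replicate 2, 3192 and 2237 bp in knockout lists, with at most 799 bp in control replicate 1. H1f5 had 887 bp and no peak in control, 1519 and 1214 bp in knockout lists. The narrower 4 were H3c13, H2bc18, H1f3 (3856 and 1784 bp against 1683 bp and none) and H1f1 (1389 and 1413 bp against none and 501 bp). The control replicate 1 peak of H1f3 (3856 bp) also touched H4c6, and the closest lists differed little, at 1784 and 1683 bp. That of H1f1 (23761611 to 23762999) also touched H4c1 and H3c1 and ended before the H1f1 span. H1f3 thus had H3K4me3 in both knockout lists, while its widest H3K27ac peak was narrower or absent there.

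Most histone genes with H3K27ac in both knockout lists were not called for H3K4me3 in both. Of the 36 members with H3K27ac in both knockout lists, 5 (13.9%) also had H3K4me3 in both, against 75.0% of all genes with H3K27ac in both. In the control lists the numbers were 0 of 31 members and 20.4% of all genes. Read the other way, 5 of the 11 members with H3K4me3 in both knockout lists had H3K27ac in both (45.5%), against 45.1% of all genes, and all 11 had it in at least 1. Among these 5 is H2bc6, whose span is long. In knockout replicate 2 its H3K27ac peak (23583211 to 23583851) and its H3K4me3 peak (23621095 to 23622556) lay at opposite ends of that span. Of the distinct H3K4me3 peaks at members, 10 of 13 and 8 of 11 in the knockout lists overlapped a peak of the H3K27ac list with the same number, though no label ties same-numbered lists to 1 culture. These shares are descriptions, since neighbouring members share peaks and are not independent.

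H3K27ac peaks were also shared between members. Distinct H3K27ac peaks at members numbered 27 and 18 in control and 33 and 30 in knockout lists, and 17, 12, 18 and 12 of them touched 2 or more genes. Up to 4 genes shared 1 peak. The 9 divergent H2A and H2B pairs with known strand lie 163 bp to 280 bp apart, and 7 of them had an H3K27ac call in at least 1 list. In these 7 the H2A and the H2B gene were called in the same H3K27ac lists, with windows that overlap at their shared side, while H2ac7 and H2bc7 differed for H3K4me3. The other 2 pairs had no H3K27ac call. The peaks covered 14.4% to 17.3% of the bases of member spans in the knockout and 9.11% to 12.3% in control lists. A few long annotated spans, such as H2bc6 (23583670 to 23621124) and H2bc22 (21787483 to 21801561), weigh heavily in these shares. The shares thus do not describe a typical short member, and the same share over all genes was not taken.

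The 7 members with no H3K27ac call in any list were H2bc23, H2ac23, H4c17, H2ac24, H4c3, H2bc1 and H2ac1. H2bc1 and H2ac1, known as testis histone genes (Th2b and Th2a), had no peak of any mark. H2bc23, H2ac23, H4c17 and H2ac24 lie close together in the proximal cluster, and 73.3% to 100% of the 50-base windows of their promoters recur in another promoter. Reads from such copies cannot be placed with certainty, so absent calls there are uncertain. Of 57 member promoters 9 had over 50% of such windows, also H4c18, H3c14, H3c15, H2ac18 and H2ac19, and 11 had any. The part of these repeats in the calls was not tested. Leaving these 9 members out gave 10 knockout-only members for H3K4me3 and 5 for H3K27ac.

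H3K27me3 peaks kept a distance from the members in every list. The nearest lay 20 kb to 36.9 kb from H2ac12 in the proximal cluster, 13 kb to 205.1 kb from H2bc18 on chromosome 3 and 53.3 kb to 135.9 kb from the outer genes of the distal cluster. Inside the span of the proximal cluster 1 and 1 H3K27me3 peaks lay in control and 5 and 5 in knockout lists. Prss16, a serine protease gene there, had 1578 and 809 bp in the knockout and no peak in control lists. The other 2 clusters held 0 H3K27me3 peaks in all 4 lists.

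The 11 protein-coding genes that lie between members include Hfe, Trim38 and the Slc17a transporter genes. In both control lists 0 of 11 had H3K4me3, against 3.07% of all genes, and 0 had H3K27ac, against 9.08%. In both knockout lists 1 had H3K4me3 (Zfp184, 916 and 630 bp), against 24%, and 0 had H3K27ac, against 14.4%. Counts of 0 and 1 among 11 genes are no result about these genes. This list includes the testis linker gene H1f6 and H4bc24.

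Many histone variants are also made outside S phase. Of 11 variant genes, 2 had H3K4me3 in both control lists, against 3.07% of all genes, and 8 in both knockout lists, against 24%. H3K27ac was called at 5 in both control lists, against 9.08%, and at 6 in both knockout lists, against 14.4%. Macroh2a2 and Cenpa had H3K4me3 but not H3K27ac in both knockout lists, and H1f10 had no peak of any mark. H2ax, the variant phosphorylated at DNA breaks, had H3K4me3 peaks of 1235 and 1096 bp in control and 1962 and 2487 bp in knockout lists. H3f3a, a gene for H3.3, had none and 1033 bp in control and 2572 and 3379 bp in knockout lists. H3f3b, the other H3.3 gene, had no H3K4me3 peak in any list and H3K27ac in knockout replicate 2 alone (501 bp). H2az1 was knockout-only for H3K4me3 (1313 and 1393 bp), and H2az2 for both marks. H1f0, the linker histone of resting and differentiated cells, was knockout-only for H3K27me3 (2580 and 501 bp), against 2.43% of all genes. It also had H3K4me3 (987 bp) and H3K27ac (1267 bp) in knockout replicate 1, and H3K27ac (501 bp) in control replicate 2.

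Most genes that act on histone mRNA and the S phase programme had H3K4me3 in the knockout lists. Of 31, 3 were called in both control lists (E2f3, Cdc25a and Sympk) and 22 in both knockout lists (71.0%), against 3.07% and 24% of all genes, and 14 were knockout-only (45.2%), against 13.5%. Npat, the organiser of histone locus bodies, had no peak and 626 bp in control and 1835 and 2058 bp in knockout lists. Slbp, which binds the histone mRNA stem-loop, had 665 bp and none against 1148 and 763 bp. Hinfp, the activator of H4 genes, was knockout-only (920 and 777 bp), as were E2f1, E2f4 and Ccne1. H3K27ac was called at 10 of these genes in both control lists, against 9.08% of all genes, and at 9 in both knockout lists, against 14.4%. In all 4 lists 7 had it, against 6.91%, among them Npat, Pou2f1, Gon4l and E2f3.

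Among 16 histone chaperone and handling genes, 3 had H3K4me3 in both control lists (Rbbp7, Atrx and Npm1), against 3.07% of all genes, and 11 in both knockout lists, against 24%. Of these 11, Nasp, Chaf1a, Hat1, Mcm2 and Nap1l1 were knockout-only, against 13.5% of all genes. Nasp is a chaperone of H1, H3 and H4, and Chaf1a a subunit of the assembly factor CAF-1. H3K27ac was called at 9 in both control lists, against 9.08%, and at 12 in both knockout lists, against 14.4%. Nasp and Rbbp4 were knockout-only for H3K27ac, against 2.88%. The share with H3K27ac in both knockout lists was 75.0% for chaperones, 58.1% for the histone genes, 54.5% for variants and 29.0% for the mRNA pathway.

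**Figure D5:**
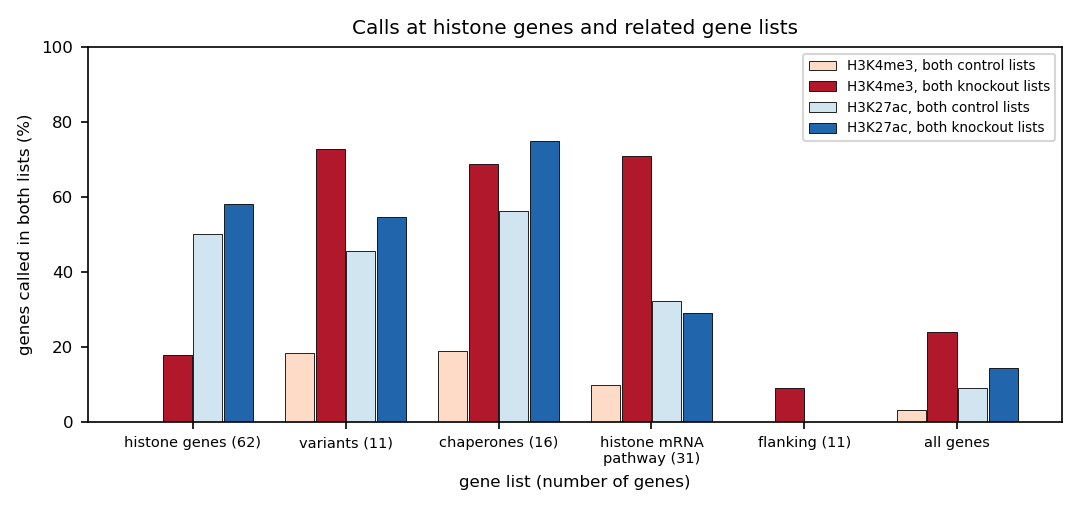
Share of genes (%, vertical axis) called in both control or both knockout lists for H3K4me3 and H3K27ac, in the 62 histone genes, the lists of variants, chaperones, histone mRNA pathway and flanking genes, and all 21887 genes. The H3K4me3 knockout bar is 17.7% for histone genes and 68.8% to 72.7% for variants, chaperones and pathway genes, while the H3K27ac bars of the histone genes exceed those of all genes.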

How the data were processed

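The data were 12 peak lists, 2 per condition for each of 3 marks, and 4 inputs were not used here. Per the submitters' processing notes, the authors used CASAVA, Trimmomatic 0.38, Bowtie2 2.4.1, SAMtools and HOMER with build mm10. Per the labels' protocols, spike-in chromatin and antibody were added. Peak caller settings and any use of inputs or spike-in are not given in the sources here. The deposited lists hold the start and end of each peak, at least 501 bp wide, and a score that was 1 for every peak in the authors' files. Lists were called per replicate, as deposited.

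Peaks were set against RefSeq gene spans (GRCm38) with Python 3.11.15, pandas 2.3.3 and NumPy 2.4.6, with a minimum overlap of 1 bp, and drawn with matplotlib 3.10.9. Calls were made on all 21887 genes. The width of the widest peak at a gene was compared with an exact permutation test (two-sided, 6 assignments). Code tested on simulated knockout-only calls recovered 200 of 200 planted genes among 21887, with 0 extra. The planted genes were drawn only from those whose windows touch no other gene's window, with peaks centred on the start. Shared peaks, common at the members, were thus not simulated. RefSeq promoters matched 57 of 62 members. The members and gene lists were chosen with earlier results of these data known. Values in every list were given, per mark, for up to 8 members each that were knockout-only, control-only or called in all 4 lists, by the smaller width of the calling lists, and for up to 4 genes per class of the other lists. The members described only for wider or narrower H3K27ac, H3c15, H3f3a, H3f3b, the H1 genes as a family and the AAACACA motif were chosen after their values were seen. Alternatives were other windows and overlaps, peaks wider than the minimum, lists cut to equal length, summed widths, each list left out and the replicate block.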

Additional observations from a re-analysis of the deposited data

How the results depend on the processing

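With lists cut to equal length, H3K4me3 gave 0 knockout-only members in place of 11, a difference in members called per list (knockout minus control) of 1 in place of 15.5, and a difference in distinct peaks of 0.5 in place of 11.5. Peaks wider than the minimum gave 9.5 and 7 for these differences, and gene spans 12 for members. Starts alone, taken only for the 57 members with a known start, gave 10 for peaks. Leaving out each list in turn gave 11 to 18 knockout-only members for H3K4me3. For H3K27ac knockout-only members ranged from 7 to 15 and control-only members from 2 to 9. With windows of 2500 bp, 4 members were knockout-only for H3K27ac. Control-only members for H3K27ac numbered 1 with windows of 500 bp, gene spans, an overlap of 250 bp or peaks wider than the minimum. The difference in H3K27ac members called per list stayed positive in all these settings, from 2 to 12.5. The equal-length and wider-peak lists hold fewer peaks. Equal-length H3K4me3 lists also lost the knockout peaks narrower than 1178 and 1149 bp, while control lists kept peaks of 501 bp. The cause of these shifts was not tested.

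Of 25 width differences at named members, 8 turned direction in some setting, all for H3K27ac. Without knockout replicate 2, H1f2, H3c3 and H2bc3 moved to 844 bp (lowest over lists left out -3288, -3288 and -6601 bp), and H3c3 to 401 bp with summed widths (exact permutation p = 0.667). H4c14 moved from -110 bp to 307 bp without control replicate 1 and 47 bp without knockout replicate 1 (lowest -527 bp), and H4c6 from -385.5 bp to 1033 bp and 403.5 bp (lowest -1804 bp). H2bc8 and H2bc7 moved from 288 bp to -329 bp without control replicate 2 and -307 bp without knockout replicate 1 (highest 905 bp), and H2ac7 from 530 bp to -87 bp without control replicate 2 (highest 1147 bp).

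The replicate block left the counts at 11, 0, 7 and 2 and the differences at 15.5, 11.5, 6.5 and 9 by construction, and its smallest possible p is 0.5. Deviations of same-numbered lists correlated at -0.03, -0.02 and 0.06 for H3K4me3, H3K27ac and H3K27me3, so the numbers were not shown to pair the lists. H3K27me3 counts were 0 in every setting, the block included. Leaving out the 9 members with repeated promoters was chosen after seeing the data.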

Other observations

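Genes with only an older Hist symbol were called in a few lists. H4f16 on chromosome 6 had H3K27ac widths of 628 bp and 767 bp in the knockout lists and no peak in control. H2bu2 on chromosome 11 had H3K27me3 peaks of 926 bp in the second control list and of 2055 and 1243 bp in the knockout lists. H4bc24 and H1f6, inside the chromosome 13 clusters, had no peak of any mark.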
